A study of Mus musculus with 6 samples.

Results

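The genes described here encode 8 integrin subunits that take part in receptors for laminins and collagens: Itga1, Itga2, Itga3, Itga6, Itga7, Itga9, Itga11 and Itgb4. They were taken by symbol from a fixed list and not by their measured values, although earlier results of these data were known when the list was chosen. All 8 were found among the 56940 genes of the count files, which hold 27 integrin subunit genes in all. RNA was sequenced from mouse lens capsules with the lens epithelial cells that remain on them once the fiber cell mass has been taken out through an opening in the front of the lens, which models cataract surgery. The study made 3 libraries from capsules taken 72 h after the operation and 3 from capsules taken at 0 h, with 5 capsules pooled in each. All mice were C57BL/6, labelled wildtype and treated by cataract surgery, in both groups alike. RUNX_Cre_N stands in each library's description as a further tag, which no source used here explains. The labels used here give no age or sex. Each mouse had one eye operated on first and the second eye 72 h later, with both capsules then harvested, so the groups can hold eyes of the same animals, but no label ties a 72 h library to a 0 h library. Since 5 capsules went into each library, the p-values below measure the spread between pools and not between animals.

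Integrins are pairs of one α and one β chain that span the cell membrane, bind the extracellular matrix outside and the actin or keratin cytoskeleton inside. The lens epithelium sits on the lens capsule, a thick basement membrane of laminin and type IV collagen, and laminin-binding integrins hold it there. The α3, α6 and α7 chains with β1 are laminin receptors. The α6 chain also pairs with β4, the subunit that anchors hemidesmosomes to intermediate filaments. The α1, α2 and α11 chains with β1 are collagen receptors, and α9 with β1 binds tenascin C, osteopontin and other proteins of wound matrix.

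Counts in genes ranged from 8453450 to 8945397 in the 72 h libraries and from 11338820 to 12432688 in the 0 h libraries. Pax6, a transcription factor of the eye, was at 593, 588 and 749 CPM (read counts scaled to the TMM-adjusted library size) in the 72 h libraries and at 660.5, 706 and 685 CPM in the 0 h libraries. Foxe3, a transcription factor of the lens epithelium, was at 60.4, 62.0 and 52.8 CPM in the 72 h libraries and at 258, 248 and 241 CPM in the 0 h libraries. Of 8 genes listed as lens epithelium markers, 6 fell at 72 h, and Pax6 and Six3 were not called (median log2 change −1.62). The 6 were Foxe3, Cdh1, Prox1, Mab21l1 and the crystallin genes Cryaa and Cryab. All 7 tested lens fiber markers fell (median log2 change −3.29). Replicate 3 at 72 h stood apart by markers of corneal and surface epithelium: 15 such markers summed to 49.2, 178 and 5933 CPM in the 72 h libraries and to 118.2, 72.6 and 96.8 CPM in the 0 h libraries.

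Of the 8 genes, 7 had enough counts to be tested, and 6 of these changed: Itga7, Itgb4, Itga2, Itga1 and Itga3 rose at 72 h and Itga6 fell. Itga9 was not called, and Itga11 was too low to test. With a fold of at least 2 also required, 4 were higher and 1 was lower, as were 13.5% and 10.4% of all tested genes. A gene was called at an adjusted p under 0.05 in edgeR's quasi-likelihood test over all 15407 tested genes. By this rule 38.5% of all tested genes were called in either direction, 21.0% higher and 17.5% lower at 72 h. The median log2 change was 1.36 over the 7 tested subunit genes, against −0.02 over all tested genes. The 72 h and 0 h libraries did not overlap in CPM for the same 6 genes, 5 of them higher and 1 lower. Over all tested genes this held for 53.5%, with 26.5% higher and 26.9% lower. Without 72 h replicate 3 the counts were again 5 higher and 1 lower, and without any one of the 0 h libraries 3 were higher and 1 lower. In whole capsules, a change in the number of cells of a type and a change in RNA per cell cannot be told apart.

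**Figure D1:**
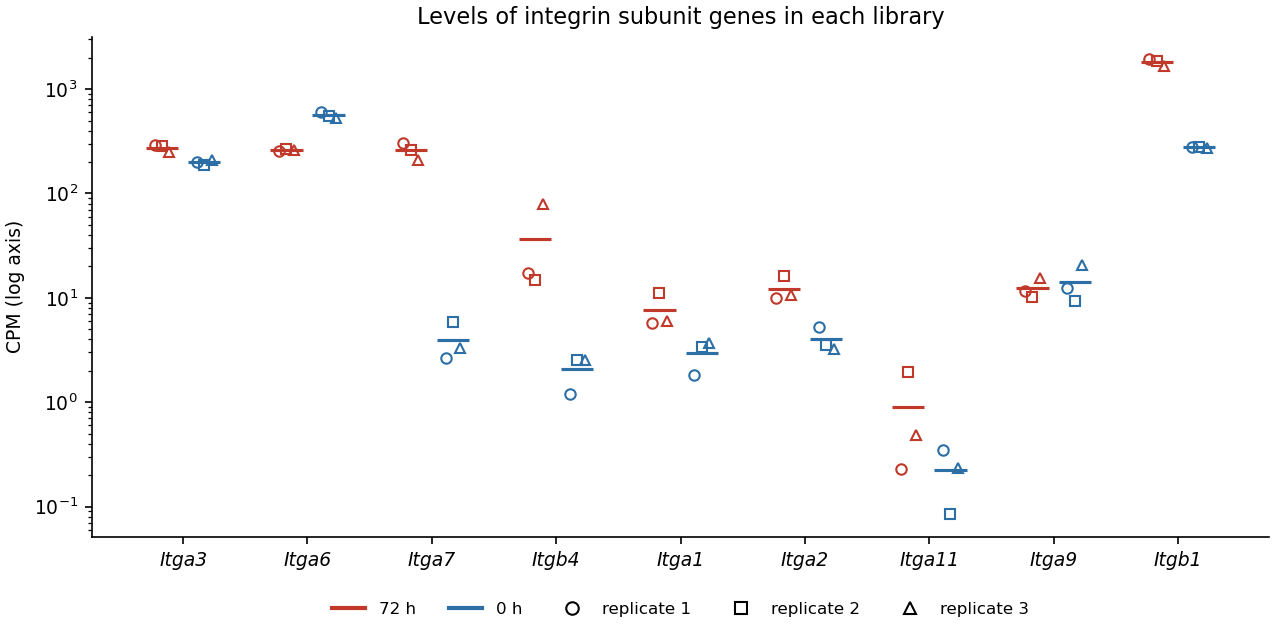
CPM (log axis) of the 8 subunit genes and of Itgb1, their main β partner, in each library, with 72 h in red left of 0 h in blue, symbols for replicates and bars for group means. Itga7 lies between 209 and 303 CPM at 72 h and between 2.68 and 5.93 CPM at 0 h, while Itga6 lies between 253 and 266 CPM at 72 h and between 529 and 599.7 CPM at 0 h.

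Among the laminin receptor α chains, Itga7 and Itga3 rose and Itga6 fell. Itga7 (ENSMUSG00000025348, chromosome 10), whose protein is known as the laminin receptor α chain of muscle fibers, had 2618, 2281 and 1706 counts in the 72 h libraries and 31, 70 and 42 in the 0 h libraries. It was low in every 0 h library and far higher in every 72 h library, with no overlap. Scaled, it was at 303, 264 and 209 CPM at 72 h, against 2.68, 5.93 and 3.31 CPM at 0 h. The log2 change was 6.02 ± 0.32 (SE), a 64.9-fold rise (edgeR adjusted p = 8.7e-06). It was the strongest rise of the 8 genes by fitted fold, and it was 5.79 to 6.41 on the log2 scale when any one library was left out.

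Itga6 (ENSMUSG00000027111, chromosome 2), the chain shared by the α6β1 and α6β4 laminin receptors, moved the other way. It was at 253, 266 and 259 CPM in the 72 h libraries and at 599.7, 550.0 and 529 CPM in the 0 h libraries. The 3 libraries at 72 h were close together, and all lay below every 0 h library. The fall was 2.16-fold, a log2 change of −1.11 ± 0.09 (adjusted p = 1.5e-05). Gene counts do not separate the splice forms of Itga6 or of Itga7. Lens fiber markers, which fell too, summed to 5122 to 9203 CPM at 72 h and 57907 to 61876 CPM at 0 h. Photoreceptor markers, of which 10 of 11 fell, summed to 67.6 to 186 CPM at 72 h and 738 to 1814 CPM at 0 h. The part of these cells in the fall of Itga6 was not tested.

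Itga3 (ENSMUSG00000001507, chromosome 11), whose product with β1 binds laminins of epithelial basement membranes, changed least among the called genes. It was at 294, 284 and 248.8 CPM in the 72 h libraries and at 201, 189 and 208 CPM in the 0 h libraries. The groups were separate but near each other, and the log2 change was 0.47 ± 0.10, or 1.38-fold (adjusted p = 0.00495).

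The summed level of these 3 laminin receptor α genes averaged 793 ± 68.8 CPM in the 72 h libraries, against 763 ± 35.2 CPM in the 0 h libraries (SD, n = 3 each), a ratio of 1.04. The makeup of that sum differed. Within a library, ratios between these genes do not depend on the scaling between libraries. Itga7 had 1.199, 0.990 and 0.805 counts per count of Itga6 in the 72 h libraries and 0.00447, 0.0108 and 0.00626 in the 0 h libraries. Itga3 had 1.16, 1.07 and 0.960 counts per count of Itga6 in the 72 h libraries and 0.335, 0.344 and 0.393 in the 0 h libraries. The ratios of both pairs were higher in every 72 h library than in any 0 h library (exact two-sided permutation p = 0.1 each, the smallest that 3 libraries against 3 allow).

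To compare levels between genes, counts were divided by exon length in GENCODE M21, since the ratios above also depend on gene length. Of the 8 genes' summed counts per kb, Itga6 took 24.4% ± 1.34 at 72 h, against 61.8% ± 2.34 at 0 h (SD, n = 3 each). Itga7 took 26.9% ± 3.92 at 72 h, against 0.495% ± 0.230 at 0 h, and Itga3 took 40.8% ± 2.02 at 72 h, against 34.8% ± 1.64 at 0 h. Per length, the 3 laminin receptor α genes thus made up most of the sum at 72 h, and Itga6 with Itga3 at 0 h. As shares of plain counts, the difference of 72 h minus 0 h was −41.1 percentage points for Itga6 and 29.3 for Itga7 (exact permutation p = 0.1 each, the smallest possible).

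**Figure D2:**
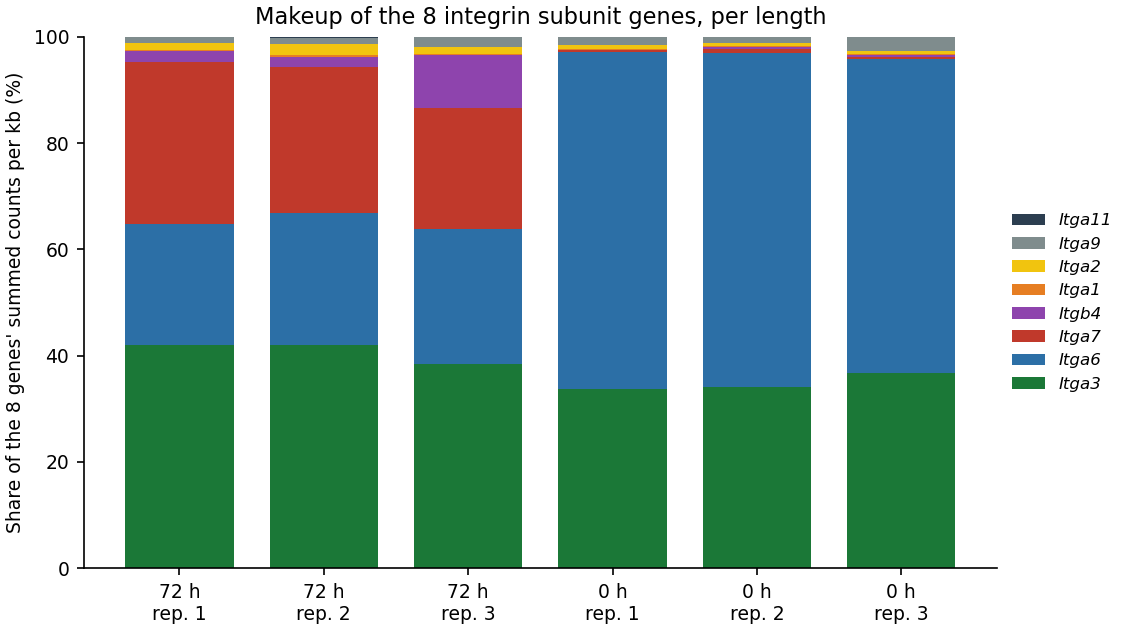
Share of each gene in the summed counts per kb of exon length of the 8 genes (percent), one bar per library, 72 h libraries left of 0 h libraries. Itga7 in red takes 22.8% to 30.5% of the bar in the 72 h libraries and under 1% in the 0 h libraries, where Itga6 in blue takes 59.1% to 63.5%.

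The order of levels per kb changed with it. At 72 h, Itga3 came first with 48.3 ± 4.15 CPM per kb, then Itga7 with 31.9 ± 5.86 and Itga6 with 28.7 ± 0.752, whose ranges overlapped. Itgb4 (5.26 ± 5.18), Itga2 (1.72 ± 0.463) and Itga9 (1.62 ± 0.356) followed, with ranges that overlapped from each to the next, and Itga1 (0.412 ± 0.165) and Itga11 (0.174 ± 0.182) came last and overlapped. At 0 h, Itga6 came first with 62.0 ± 4.01 CPM per kb, then Itga3 with 34.9 ± 1.66 and Itga9 with 1.84 ± 0.762, with no overlap between these neighbours or between Itga9 and the next gene. Itga2 (0.564 ± 0.154), Itga7 (0.491 ± 0.213), Itgb4 (0.298 ± 0.109) and Itga1 (0.160 ± 0.0544) followed with ranges overlapping from each to the next, and Itga11 (0.0433 ± 0.0256) was lowest. With coding length in place of exon length, Itga6 came before Itga7 at 72 h.

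Itgb4 (ENSMUSG00000020758, chromosome 11) encodes the β4 chain, which pairs with α6 alone. It had 149, 127 and 645 counts in the 72 h libraries and 14, 30 and 32 in the 0 h libraries. That is 17.2, 14.7 and 78.9 CPM at 72 h, against 1.21, 2.54 and 2.52 CPM at 0 h. All 72 h libraries were above all 0 h libraries, and replicate 3 at 72 h was far above the other 72 h libraries. The log2 change was 4.13 ± 0.85, or 17.5-fold (adjusted p = 0.012). Without 72 h replicate 3 it was 2.93 (adjusted p = 3.0e-05), so the rise was present without it at a smaller size. The call was missed without any one of the 0 h libraries (log2 changes of 3.84, 4.27 and 4.28, adjusted p = 0.0597, 0.0549 and 0.0598; 1.6e-11 to 0.0598 over all alternatives).

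Replicate 3 at 72 h also carried the surface epithelium markers. Krt5, a keratin of basal epithelial cells, was at 0.695, 17.3 and 1107 CPM in the 72 h libraries and at 10.98, 1.02 and 4.10 CPM in the 0 h libraries. Col17a1, a transmembrane collagen of hemidesmosomes, was at 0.347, 1.16 and 116.2 CPM in the 72 h libraries and at 1.30, 0.423 and 0.158 CPM in the 0 h libraries. In 72 h replicate 1, both genes and the sum of the 15 markers were within or below the range of the 0 h libraries, while Itgb4 was above every 0 h library. In 72 h replicate 2, Krt5 and the marker sum were above every 0 h library as well, and Col17a1 was not. Itgb4 was 4.94 times as high in 72 h replicate 3 as in the mean of the other 72 h libraries. The other members stood at 0.446 to 1.42 times that mean. The part of surface epithelium in the Itgb4 level of replicate 3 was not tested.

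**Figure D3:**
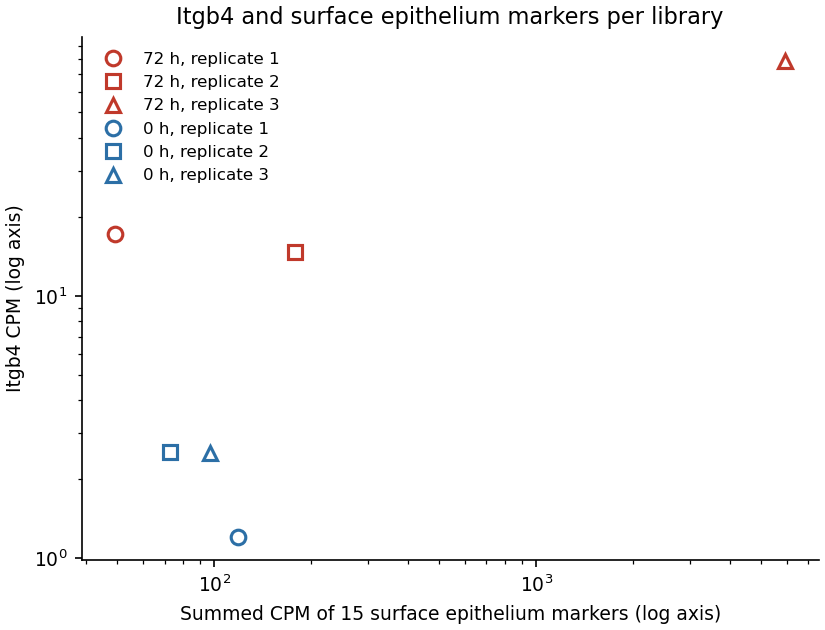
Itgb4 CPM against the summed CPM of 15 surface epithelium markers in each library (both axes log), 72 h in red and 0 h in blue. Replicate 3 at 72 h lies apart at 5933 CPM of markers, while 72 h replicates 1 and 2, at 49.2 and 178 CPM of markers, hold more Itgb4 (17.2 and 14.7 CPM) than any 0 h library.

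Of the 6 listed hemidesmosome genes, all tested, 3 rose and 3 were not called. Plec, which encodes the plectin that ties β4 to intermediate filaments, averaged 5540 ± 513 CPM at 72 h, against 2161 ± 101 CPM at 0 h (SD, n = 3 each), a log2 change of 1.36 ± 0.10 (adjusted p = 8.4e-06). Dst, the gene of the related linker dystonin, had a log2 change of 0.66 ± 0.10 (adjusted p = 4.9e-04). Cd151, a tetraspanin that binds laminin receptor integrins, rose by 0.70 ± 0.12 (adjusted p = 0.0017). Plec and Dst act in many cell types and are not particular to hemidesmosomes. Krt5, Krt14 and Col17a1 were not called, and the log2 change of Col17a1 was 5.96 ± 2.74 with all libraries and 0.28 without 72 h replicate 3.

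The collagen receptor α genes were low throughout, and the pair that could be tested rose. Itga1 (ENSMUSG00000042284), whose product with β1 is a collagen receptor with a preference for type IV collagen, had 50, 97 and 49 counts in the 72 h libraries and 21, 40 and 47 in the 0 h libraries. That is 5.79, 11.2 and 5.99 CPM at 72 h, against 1.82, 3.39 and 3.71 CPM at 0 h. The groups were separate, with 72 h replicate 2 highest. The log2 change was 1.36 ± 0.46 (adjusted p = 0.0401). The call was missed without 72 h replicate 2 (log2 change 0.98, adjusted p = 0.154) and without 0 h replicate 1, 2 or 3 (adjusted p = 0.145, 0.0966 and 0.0770). It was also missed with upper quartile normalization (adjusted p = 0.0503) and with the replicate number as a block (adjusted p = 0.0555). Over all alternatives the adjusted p was 0.0157 to 0.154.

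Itga2 (ENSMUSG00000015533), whose product with β1 is a receptor for fibrillar collagens on platelets and epithelia, had 87, 139 and 87 counts in the 72 h libraries and 61, 42 and 41 in the 0 h libraries. In CPM it was at 10.1, 16.1 and 10.6 at 72 h and at 5.28, 3.56 and 3.23 at 0 h. It too was separate between the groups and highest in 72 h replicate 2. The log2 change was 1.61 ± 0.36, or 3.04-fold (adjusted p = 0.00544).

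Itga11 (ENSMUSG00000032243, chromosome 9), the α chain of a fibroblast receptor for fibrillar collagen, had 2, 17 and 4 counts in the 72 h libraries and 4, 1 and 3 in the 0 h libraries. Of the 23 counts at 72 h, 17 lay in replicate 2, and the groups overlapped. The pooled ratio of 72 h to 0 h was 4.07, with a 95% interval of 1.76 to 10.5 that covers counting error only. The gene did not pass the filter on low counts, so no test was made.

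Itga1 and Itga2 lie next to each other on chromosome 13, both on the minus strand and 20995 bases apart in GENCODE M21 (GRCm38). The 250 bases before the start of each, from RefSeq (GRCm38.p6, minus strand, read 5′ to 3′ along the gene), are shown because these neighbours share function, position and direction of change. A search covered both strands of the window for the AP-1 motif TGANTCA, the RUNX motif TGTGGT, the TEAD motif GGAATG, the SMAD motif CAGACA, the SP1 motif GGGCGG and the core promoter motif TATAAA. Capitals mark a match, which is here a CAGACA on the other strand before Itga2.
Itga1, chr13:115101965-115102214: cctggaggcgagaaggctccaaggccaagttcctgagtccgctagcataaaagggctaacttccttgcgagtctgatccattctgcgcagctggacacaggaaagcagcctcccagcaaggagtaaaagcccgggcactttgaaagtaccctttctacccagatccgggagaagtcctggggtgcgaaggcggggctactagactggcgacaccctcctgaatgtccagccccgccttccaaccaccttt
Itga2, chr13:114932101-114932350: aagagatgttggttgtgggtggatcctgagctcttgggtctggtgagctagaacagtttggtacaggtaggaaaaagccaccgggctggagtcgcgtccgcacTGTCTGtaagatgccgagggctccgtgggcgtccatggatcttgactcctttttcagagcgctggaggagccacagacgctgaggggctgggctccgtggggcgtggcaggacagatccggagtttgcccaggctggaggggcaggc
None of the 6 motifs occurs in these 250 bases before Itga1. Of 32851 such windows over all genes, 17.1% hold CAGACA. The table held windows for Itga1, Itga2, Itga3, Itga9 and Itga11, and for Itga3 at 2 starts. TGTGGT, present in 14.0% of all windows, occurs among these in 1 window of Itga3, and GGGCGG (32.7% of all windows) in both windows of Itga3. CAGACA also occurs in 1 window of Itga3. The other motifs, found in 6.75% (TGANTCA), 12.6% (GGAATG) and 12.4% (TATAAA) of all windows, occur in none of these 6.

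Itga9 (ENSMUSG00000039115, chromosome 9), the α chain that binds tenascin C and osteopontin, did not pass the test. It was at 11.6, 10.3 and 15.5 CPM in the 72 h libraries and at 12.5, 9.31 and 20.7 CPM in the 0 h libraries. The ranges overlapped, and 0 h replicate 3 was the highest of all. The log2 change was −0.18 ± 0.33 (adjusted p = 0.699), and 0.19 without 0 h replicate 3.

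The α chains listed here other than α6 pair with β1 only, and Itgb1 rose far more than most of them. Itgb1 (ENSMUSG00000025809) was at 1922, 1841 and 1656 CPM in the 72 h libraries and at 276.9, 277.5 and 273.6 CPM in the 0 h libraries (log2 change 2.71 ± 0.10, adjusted p = 8.1e-08). Itga7 alone gained on it. Per 100 counts of Itgb1, Itga7 averaged 14.2 ± 1.59 at 72 h, against 1.44 ± 0.616 at 0 h (SD, n = 3 each).

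The other α genes were lower relative to Itgb1 at 72 h. Itga6 averaged 14.4 ± 1.25 per 100 of Itgb1 at 72 h, against 203 ± 12.2 at 0 h. Itga3 averaged 15.2 ± 0.208 at 72 h, against 72.2 ± 3.92 at 0 h, and Itga9 0.699 ± 0.207 at 72 h, against 5.14 ± 2.17 at 0 h. Itga1 and Itga2, although higher at 72 h in CPM, were lower relative to Itgb1 in every 72 h library, with log2 differences of −1.35 and −1.11. With the summed counts of Itgb1 to Itgb8 as the denominator, the differences of Itga2 and Itga11 were 0.18 and 0.10 instead, and that of Itga1 was −0.07. Of the 7 ratios to Itgb1 alone, all but that of Itga11 were separate between the groups. For these the exact two-sided permutation p was 0.1 each, the smallest that 3 libraries against 3 allow, and 0.117 adjusted over the 7.

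**Figure D4:**
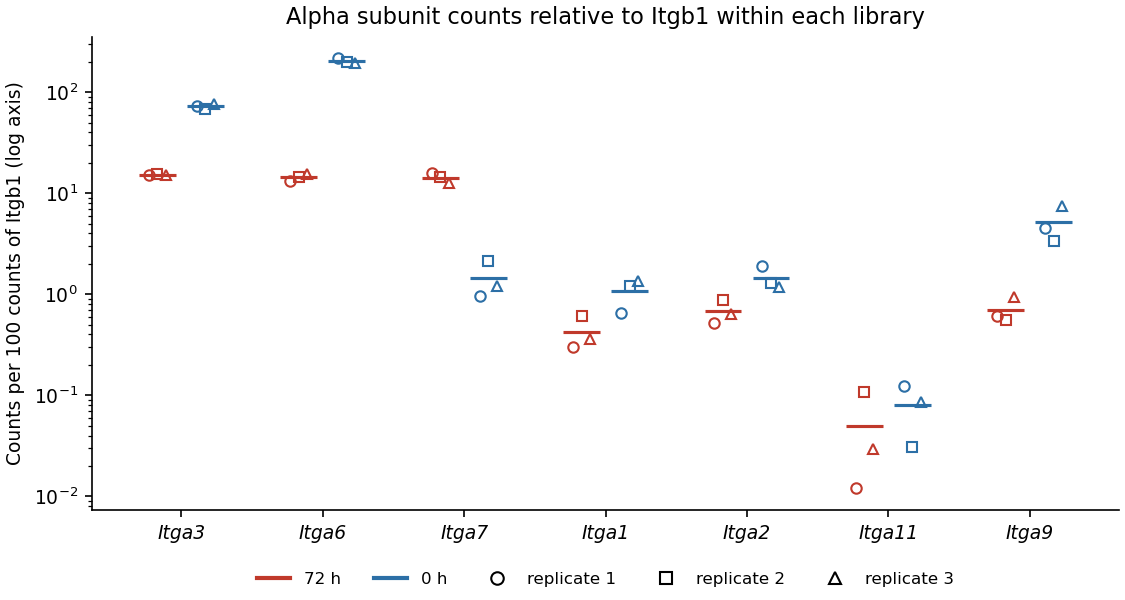
Counts of each α subunit gene per 100 counts of Itgb1 in the same library (log axis), 72 h in red left of 0 h in blue, bars for group means. Values are to be compared within a gene: Itga7 is higher in the 72 h libraries, Itga11 overlaps, and the other α genes are lower in the 72 h libraries.

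Other groups of integrin subunits give the setting. Of 10 listed subunits of RGD-binding and fibronectin receptors, 8 were tested, 7 rose and 1 fell (median log2 change 2.03). Itgb5, the β chain of a vitronectin receptor, fell by 0.57 ± 0.11 on the log2 scale (adjusted p = 0.0020). Itga4 and Itgb3 among these passed the filter on low counts through the 72 h libraries. Over all tested genes, 21.0% rose and 17.5% fell. Of 7 subunits found on leukocytes, 5 were tested and all 5 rose, by a median of 5.40. The 7 summed to 105 to 123 CPM at 72 h and 1.38 to 4.50 CPM at 0 h. The 5 passed the filter through the 72 h libraries, so they could hardly come out lower. Itgam, the α chain of a receptor of macrophages and neutrophils, averaged 45.3 ± 14.9 CPM at 72 h, against 0.229 ± 0.217 CPM at 0 h (log2 change 7.59 ± 0.56, adjusted p = 1.4e-05). These groups were not tested against the 8 genes described here.

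**Figure D5:**
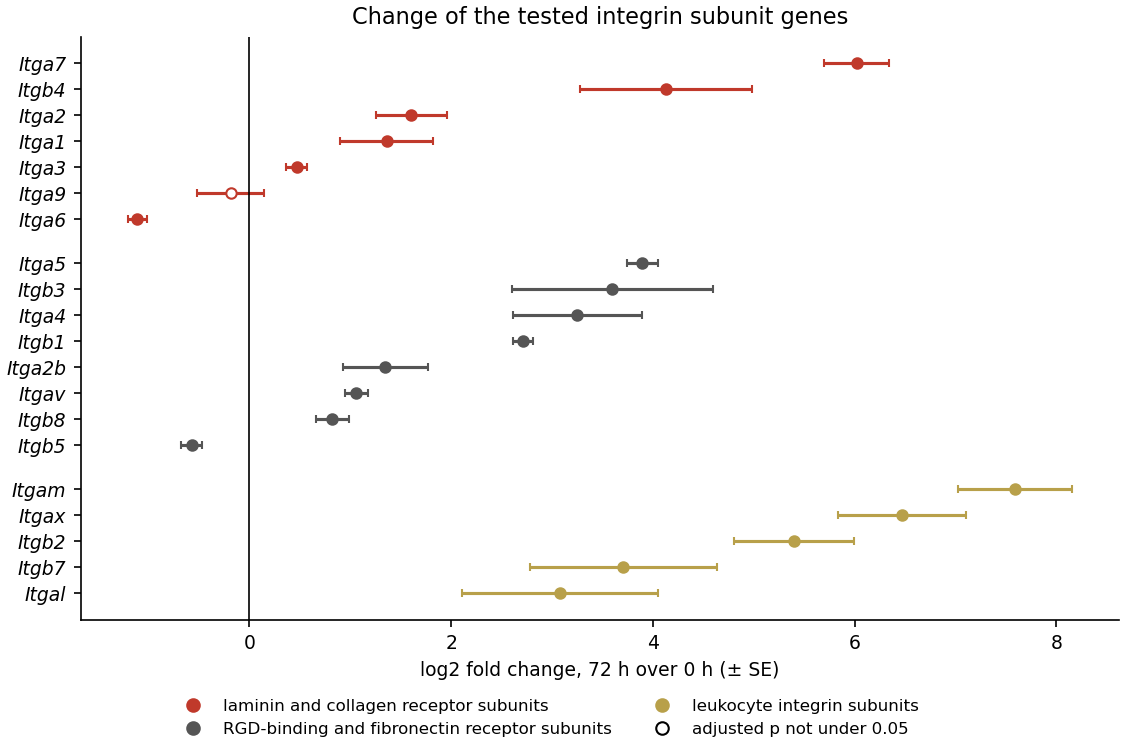
Log2 fold change of 72 h over 0 h with SE for the tested integrin subunit genes, in 3 groups; filled points passed the test. Itga6 and Itgb5 are the called genes left of 0, and among the laminin and collagen receptor subunits Itga7 lies farthest to the right at 6.02.

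The laminin ligands moved in both directions. Of 11 laminin chain genes, 10 were tested, 5 rose and 2 fell (median log2 change 0.41). Lama3 and Lamb3 encode an α and a β chain of laminins that bind α3β1 and α6β4, and they moved in opposite directions. Lama3 was at 13.7, 22.0 and 52.7 CPM in the 72 h libraries and at 296, 329 and 296 CPM in the 0 h libraries. It fell by 3.38 ± 0.56 on the log2 scale (adjusted p = 0.0078), and by more without 72 h replicate 3, where the log2 change was −4.10.

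Lamb3 averaged 13.6 ± 6.30 CPM at 72 h, against 4.14 ± 0.823 CPM at 0 h (log2 change 1.72 ± 0.39, adjusted p = 0.0061). It was highest in 72 h replicate 3, at 20.9 CPM or 2.09 times the mean of the other 72 h libraries, and without that library the log2 change was 1.28. Lamb1, a chain of many basement membrane laminins, averaged 506 ± 90.0 CPM at 72 h, against 196 ± 15.8 CPM at 0 h (log2 change 1.37 ± 0.14, adjusted p = 5.0e-05). Lamc1, the γ chain of most laminins, rose by 0.52 ± 0.15 (adjusted p = 0.0205), a call missed without 72 h replicate 1 or 2 (adjusted p = 0.0570 and 0.0599) or without 0 h replicate 1 or 2 (adjusted p = 0.0991 and 0.0949), and 1.3e-04 to 0.0991 over all alternatives. Lama1 (log2 change 0.30 ± 0.14) and Lama5 (−0.09 ± 0.09), α chains of basement membrane laminins, were not called, although Lama1 was without 72 h replicate 3 (log2 change 0.41, adjusted p = 0.011).

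Of the 15 collagen genes listed as ligands, all were tested, 7 rose and 6 fell (median log2 change 0.38). Col1a1, a chain of fibrillar type I collagen, averaged 612 ± 147 CPM at 72 h, against 4.73 ± 0.407 CPM at 0 h (log2 change 7.01 ± 0.21, adjusted p = 3.5e-08). Col4a1, of the capsule's type IV collagen, fell by 1.32 ± 0.12 on the log2 scale (adjusted p = 3.0e-05). The ligands listed for α9 rose for 8 of 9 tested members and fell for 1 (median log2 change 4.44), while Itga9 itself was not called. Among them, Tnc, Spp1 and Vegfc were near the floor at 0 h. They passed the filter on low counts through the 72 h libraries, so they could hardly come out lower. With 1 CPM asked of every library, 5 rose and 1 fell. Svep1, a further ligand, was too low to test. Tnc, the gene of tenascin C, averaged 3490 ± 279 CPM at 72 h, against 1.76 ± 1.35 CPM at 0 h (log2 change 10.93 ± 0.58, adjusted p = 7.5e-05). Spp1, which encodes osteopontin, averaged 654 ± 335 CPM at 72 h, against 0.535 ± 0.291 CPM at 0 h, and Fn1, the fibronectin gene, 3172 ± 399 CPM at 72 h, against 17.3 ± 3.74 CPM at 0 h. Npnt, which encodes nephronectin and is better known as a ligand of α8β1, was the member that fell, with 19.4 ± 11.5 CPM at 72 h, against 286 ± 25.6 CPM at 0 h (log2 change −3.88 ± 0.57, adjusted p = 0.0055).

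Receptors for laminin and collagen that are not among the 8 genes were mostly not called, as were most tested genes (38.5% called). Of 13 listed, 10 were tested, 1 fell and 9 were not called (median log2 change −0.11). Without 72 h replicate 3, 2 rose. Dag1, the gene of the laminin receptor dystroglycan, averaged 269 ± 34.0 CPM at 72 h, against 287 ± 9.28 CPM at 0 h. The collagen receptor kinases Ddr1 (294 ± 16.7 CPM at 72 h, 319 ± 11.2 CPM at 0 h) and Ddr2 (219.6 ± 42.9 CPM at 72 h, 184 ± 14.8 CPM at 0 h) were likewise not called, with log2 changes of −0.12 ± 0.09 and 0.26 ± 0.14, although Ddr2 was without 72 h replicate 3 (0.41, adjusted p = 0.0042). Itga10, a collagen receptor α chain of cartilage, averaged 0.870 ± 0.383 CPM at 72 h, against 1.65 ± 0.567 CPM at 0 h, and was not called. Sgce, a sarcoglycan of the dystroglycan complex, fell by 0.92 ± 0.23 on the log2 scale (adjusted p = 0.0106). That call was narrowly missed without 0 h replicate 2 (log2 change −0.89, adjusted p = 0.05005).

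Partners and adaptors of integrins rose more often than they fell, as did all tested genes (21.0% higher and 17.5% lower). Of 8 tetraspanins, 6 rose and 2 were not called, with 4 to 6 higher over all alternatives. Cd37, with 0 counts at 0 h, and Cd53 were among the 6. Both passed the filter on low counts through the 72 h libraries, so they could hardly come out lower. Cd63, a tetraspanin of endosomes and the cell surface, averaged 327.5 ± 64.6 CPM at 72 h, against 96.5 ± 4.38 CPM at 0 h (log2 change 1.76 ± 0.14, adjusted p = 1.1e-05). Of 19 activators and adaptors, 11 rose and 2 fell. Fermt1, one of the 11, had 0 counts in all 0 h libraries and could only come out higher. Vcl, the gene of vinculin, which links integrins to actin, averaged 704 ± 11.2 CPM at 72 h, against 119.2 ± 9.49 CPM at 0 h (log2 change 2.56 ± 0.10, adjusted p = 1.3e-07). Of the talin genes, whose products activate integrins, Tln2 fell by 0.93 ± 0.12 on the log2 scale (adjusted p = 2.8e-04). Tln1 rose by 0.81 ± 0.11 (adjusted p = 2.6e-04). Tln2 averaged 211 CPM at 72 h, against 403 CPM at 0 h, and Tln1 661 CPM at 72 h, against 377 CPM at 0 h.

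Several of these integrins are also made by cells that come into a wound or lie near the lens, and markers of some such cells differed between the groups. Macrophage and monocyte markers summed to 213 to 429 CPM at 72 h and 112 to 118.8 CPM at 0 h, and 9 of 13 tested were higher and 1 lower. Of the higher ones, Ccr2, Cd68 and Cd14 passed the filter on low counts through the 72 h libraries. Neutrophil markers summed to 20.7 to 44.5 CPM at 72 h and 0.931 to 1.58 CPM at 0 h, with Ly6g, Mpo, Elane, Ngp and Camp at 0 counts in all libraries. The 2 tested neutrophil markers, Csf3r and Cxcr2, were higher (log2 changes of 4.41 ± 0.34 and 7.71 ± 1.36, adjusted p = 9.0e-06 and 0.0029). Cxcr2 had 0 counts in all 0 h libraries. It passed the filter on low counts through the 72 h libraries alone, so it could only come out higher. T and NK cell markers, of cells that can carry Itga1 and Itga2, summed to 0 to 5.14 CPM at 72 h and 0.339 to 0.473 CPM at 0 h, and none was tested. In 72 h replicate 2, where Itga1 and Itga2 were highest, they summed to 0.809 CPM.

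Platelet markers, relevant to Itga2, summed to 17.6 to 42.4 CPM at 72 h and 3.00 to 5.62 CPM at 0 h, with Gp1ba, Gp1bb, Gp9, Gp6 and Gp5 at 0 counts in all 72 h libraries. The 2 tested platelet markers, Pf4 and Itga2b, were higher (log2 changes of 4.42 ± 0.50 and 1.35 ± 0.42, adjusted p = 9.2e-05 and 0.030). Pf4 passed the filter on low counts through the 72 h libraries. Pericyte and smooth muscle markers, relevant to Itga7, summed to 321 to 337 CPM at 72 h and 219 to 239 CPM at 0 h, with 3 of 9 tested higher and 2 lower. The higher ones were Cspg4, a pericyte proteoglycan (log2 change 5.05 ± 0.49), Smtn, of smooth muscle (3.13 ± 0.17), and Cnn1, which had 0 counts in all 0 h libraries. The lower ones were Pdgfrb and Abcc9. Desmin (Des), a defining muscle gene, was at 0.695, 1.96 and 1.35 CPM in the 72 h libraries and at 0.346, 0.677 and 1.18 CPM in the 0 h libraries, and Myh11, of smooth muscle, was at 10.5, 5.43 and 1.35 CPM in the 72 h libraries and at 5.19, 4.66 and 2.45 CPM in the 0 h libraries; neither was called. Fibroblast markers summed to 604 to 1142 CPM at 72 h and 211 to 275 CPM at 0 h, with 4 of 6 tested higher and 1 lower. That list holds Col1a1 and Col3a1, which averaged 612 and 160 CPM at 72 h, against 4.73 and 1.27 CPM at 0 h. They made up most of the sum at 72 h and little of it at 0 h. The rest of the list summed to less in every 72 h library than in any 0 h library. Endothelial markers summed to 9.29 to 23.7 CPM at 72 h and 9.39 to 20.2 CPM at 0 h. Schwann cell markers, of cells that can carry Itga6 and Itgb4, summed to 11.6, 16.9 and 57.4 CPM in the 72 h libraries and to 8.65, 9.74 and 5.99 CPM in the 0 h libraries, with 2 of 3 tested higher. They were thus highest in 72 h replicate 3, as Itgb4 was. The part of these cells in the changes of the 8 genes was not tested.

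Genes with the pattern nearest to each tested subunit gene were sought among 9231 genes whose mean reached 10 CPM, by the root mean square distance of centred log2 CPM over the 6 libraries. The nearest to Itga7 were Axl (distance 0.25) and Zfp469 (0.27), and the nearest to Itga6 were Tbcb and Mboat2 (0.05 and 0.06). Nearest to Itga3 were Mia3 and Sox5 (0.04 each), to Itga1 Tgfb3 (0.12) and Tbc1d9 (0.26), and to Itga2 Slc25a25 (0.14) and Mid2 (0.16). Itga9 had Gmppa and Cep112 (0.17 and 0.19), and Itgb4 had Oasl2 and Trpm6 (0.28 and 0.33). All distances are over the same 6 libraries in 2 groups, which share their scaling. Among the members themselves, Itga3 and Itga9 (0.47) and then Itga1 and Itga2 (0.49) were closest, and Itga6 and Itga7 were farthest apart (3.53).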

How the data were processed

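Per the labels' protocols, capsule RNA was isolated by RNeasy Mini Kit and the 6 libraries were built by Takara SMARTer Stranded Pico v2. Values were used as deposited: whole-number counts for each Ensembl gene, without scaling by the authors. The submitters' processing notes name HISAT2, HTSeq, edgeR and GRCm39; their versions, the annotation and the strand setting are not given in the sources used here. Without the strand setting, reads of overlapping genes are uncertain: in GENCODE M21, 537 of the 7015 exon bases of Itgb4 and 9 of those of Itga7 overlap a gene on the other strand, and 685 of those of Itga1 a gene on the same strand that had 0 counts.

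The 5 lines of reads assigned to no gene (49.7% ± 1.86 at 72 h, against 44.0% ± 1.82 at 0 h; SD, n = 3 each) were left out. Symbols and lengths came from GENCODE M21 (GRCm38), which named 51947 of 56940 identifiers; since the builds differ, coordinates are given only for the RefSeq windows. Genes were kept by filterByExpr (minimum count 10, minimum total 15), scaled by TMM and tested for 72 h over 0 h with edgeR's quasi-likelihood test (edgeR 4.0.16, R 4.3.3, robust, prior count 0.125), with two-sided p-values adjusted by Benjamini-Hochberg across every tested gene. Each SE is the log2 change divided by the root of its F value. Ratios to Itgb1 were tested on log2 counts with 0.5 added to both. The code was tested on simulated data.

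The members, lists and tests were chosen with earlier results of these data known. Beside the 8 members and Itgb1, the naming rule took 17 further genes whatever their result and, from each of 9 lists of related genes, the called gene with the smallest p in each direction. One gene that the rule names is not reported here. Other genes named from marker lists, and Tln1, were chosen after their values were seen. Counts of libraries of one group differed by more than sampling noise (chi-square per degree of freedom at least 7.44). Alternatives were DESeq2 1.42.0, limma voom (limma 3.58.1), other scalings and filters, a replicate block and leaving out each library.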

Additional observations from a re-analysis of the deposited data

How the results depend on the processing

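Itga2, Itga3, Itga6 and Itga7 kept their direction and their call in all 15 alternatives of the fit (log2 changes of 1.36 to 1.83, 0.38 to 0.55, −1.20 to −1.07 and 5.79 to 6.41). With upper quartile normalization the log2 change of Itga1 was 1.28 and the call was missed. With no filter that of Itgb4 was 4.11 (adjusted p = 0.0529) and the call was missed; the cause was not tested. Leaving out 1 library at a time gave 0.98 to 1.55 for Itga1, 2.93 to 4.50 for Itgb4 and −0.42 to 0.19 for Itga9, whose share of counts differed by −0.645 to 0.0865 percentage points. It left 3 to 5 members higher. With fewer samples the test has fewer residual degrees of freedom.

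Replicate numbers are shared by the groups, but deviations of same-numbered libraries correlated at −0.03, 0.05 and −0.01, and not every library correlated best with its own number, so the numbers were not taken to pair the libraries. With the replicate block, 2921 genes were higher and 2507 lower (3230 and 2700 without it), and 4 members were higher; Itga1 had a log2 change of 1.36 (adjusted p = 0.0555).

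Among lists, the stricter filter (1 CPM in every library) left 0 leukocyte integrins and 5 ligands of α9 higher and 1 adaptor lower, since fewer genes were tested. With no filter 2 RGD-binding and fibronectin subunits were lower, and with DESeq2 1 of the other laminin and collagen receptors was higher. Leaving out 1 library gave 1 to 2 RGD-binding and fibronectin subunits, 1 to 2 laminin chains, 1 to 2 adaptors and 0 to 1 other receptors lower, and 0 to 2 other receptors higher. Over all genes it gave 2511 to 3646 higher and 1877 to 3265 lower.

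With Itgb1 to Itgb8 as the denominator, the log2 differences of Itga2 and Itga11 were 0.18 and 0.10, the sign turned. Divided by gene length, the share of Itga6 differed by −37.4 percentage points. By coding length, Itga6 ranked 2 and Itga7 3 at 72 h, Itga9 5 and Itga2 6, and at 0 h Itga1 ranked 6 and Itgb4 7. Of 14 nearest genes, 1 was also among those nearest by Pearson correlation. Itga11, with 31 counts in all, did not reach the depth that the filter asks for.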
